A study of Mus musculus with 9 samples.

Results

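The 35 genes described here encode the enzymes of cholesterol and fatty acid synthesis that are classic targets of the sterol regulatory element-binding proteins (SREBPs), together with the SREBPs and their regulators. They were taken by symbol from the gene count table, in which all 35 were present among 15552 genes, and all 35 passed the filter on low counts among 11373 genes tested. By their roles, 18 form a sterol arm (Hmgcs1, Mvk, Pmvk, Mvd, Idi1, Fdps, Fdft1, Sqle, Lss, Cyp51, Tm7sf2, Msmo1, Nsdhl, Hsd17b7, Ebp, Sc5d, Dhcr7 and Acat2), 11 form a fatty acid arm (Acly, Acss2, Acaca, Fasn, Me1, Scd1, Scd2, Elovl5, Elovl6, Fads1 and Fads2), and 6 control the pathway (Srebf1, Srebf2, Scap, Insig1, Insig2 and Stard4).

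The cells were MyC-CaP, a mouse prostate cancer line from a tumor driven by a MYC transgene under an androgen-responsive prostate promoter. All groups were starved for 6-12 h in medium without serum and calcium and were assigned to recombinant NRG1 at 15 ng/mL, which binds and activates the receptor HER3. Poly(A) RNA was sequenced after 0, 12 and 24 h, with 3 libraries per time point that the labels call biological replicates. The 0 h libraries are the only baseline used here. None of the 9 libraries was kept for 12 or 24 h without NRG1, so that time in the starvation medium and time with NRG1 cannot be told apart.

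SREBPs are made as inactive precursors in the membrane of the endoplasmic reticulum. When sterols are low, SCAP carries them to the Golgi, where proteases release the part that enters the nucleus and activates its targets, and INSIG proteins hold SCAP back when sterols are high. The product of Srebf2 acts mainly on sterol genes, and the main product of Srebf1 in most tissues acts mainly on fatty acid genes. Tumor cells, prostate cancer cells among them, often make much of their own fatty acid and cholesterol.

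Counts per library ranged from 28467089 to 37873433 at 0 h, from 30920755 to 36177889 at 12 h and from 30299344 to 39239760 at 24 h. Among epithelial and prostate luminal markers, Hoxb13 and Krt8 were detected, with mean Hoxb13 at 84.3, 102 and 90.3 CPM (counts scaled to a common library size) at 0, 12 and 24 h, whereas Krt18, Epcam and Cdh1 averaged under 1 CPM, which goes against an epithelial label. Immune and endothelial markers summed to at most 0.232 and 0.299 CPM in any library. Fibroblast markers summed to between 15.3 and 18.01 CPM over the libraries, nearly all of it Pdgfra, with Col1a1, Col3a1 and Dcn under 1 CPM. The share of counts from mitochondrially encoded genes was 1.46% ± 0.0422 before NRG1, 1.16% ± 0.0334 after 12 h and 1.27% ± 0.0756 after 24 h (SD, n = 3), and its part in the results below was not tested. In such bulk RNA, a change in the RNA per cell and a change in the share of cells that carry it cannot be told apart. The first 0 h replicate was the lowest of its time point for 28 of the 35 genes, so counts are also given without it.

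The promoters of these genes are shown first because SREBPs bind them together with partner factors. RefSeq promoter windows on GRCm38.p6 were found for 28 of the 35 genes (37 windows), and the 250 bases before each start were searched on both strands for TCACNCCAC (a sterol response element), CCAAT (the box of NF-Y), GGGCGG (the GC box of Sp1) and CACGTG (the E-box). The 3 sequences below are upstream of Hmgcs1, which holds the sterol response element letters, of Mvk, which holds 5 CCAAT boxes, and of Fasn, which holds 3 but whose RNA did not pass the test at any time. In Fasn, the matches starting at -62 and -59 lie on opposite strands and overlap as CCAATTGG. They lie at chr13:119690101-119690350 on the plus strand, chr5:114444019-114444268 on the plus strand and chr11:120824548-120824797 on the minus strand, each read 5′ to 3′ toward the gene. Capitals mark TCACNCCAC and CCAAT, or ATTGG where the box is on the other strand.
Hmgcs1: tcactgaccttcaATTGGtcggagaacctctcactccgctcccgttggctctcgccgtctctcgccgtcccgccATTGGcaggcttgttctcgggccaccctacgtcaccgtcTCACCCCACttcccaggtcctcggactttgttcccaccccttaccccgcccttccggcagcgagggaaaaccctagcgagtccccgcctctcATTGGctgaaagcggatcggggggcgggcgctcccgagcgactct
Mvk: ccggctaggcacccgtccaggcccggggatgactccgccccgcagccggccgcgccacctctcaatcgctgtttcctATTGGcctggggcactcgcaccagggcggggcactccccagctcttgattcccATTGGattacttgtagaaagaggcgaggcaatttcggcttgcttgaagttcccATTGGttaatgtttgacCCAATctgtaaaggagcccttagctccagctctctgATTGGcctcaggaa
Fasn: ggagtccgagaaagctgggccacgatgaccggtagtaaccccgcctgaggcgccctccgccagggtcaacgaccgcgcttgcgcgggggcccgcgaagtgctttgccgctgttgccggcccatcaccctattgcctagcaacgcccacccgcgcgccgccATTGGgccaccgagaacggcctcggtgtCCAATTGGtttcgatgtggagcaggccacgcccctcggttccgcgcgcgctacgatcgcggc

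The letters TCACNCCAC occurred in 1 member window, that of Hmgcs1, as TCACCCCAC starting at -137 from the start site, and in 1.05% of all 32851 windows. CCAAT was common in the sterol arm, where 14 of 18 windows (77.8%) held it, against 4 of 9 windows (44.4%) in the fatty acid arm, 5 of 10 among the control genes, 33.8% of all windows and 35.9% of windows of genes tested. By gene, 14 of the 15 sterol genes with a window held CCAAT, Acat2 being without it. So did 4 of 8 fatty acid genes, 4 of 5 control genes and 41.4% of genes tested. The share was 13 of 18 in a list of fatty acid supply, elongation and storage genes described below. GGGCGG was found in 83.3% of sterol windows and 44.4% of fatty acid windows, against 58.2% of windows of genes tested. CACGTG was found in 16.7% and 11.1% of them, and in 8.45% of windows of genes tested. A match is only a match of letters. Some windows lie inside the gene, among them the only window of Acaca. No window was found for Scd1, Scd2 and Fads1 in the fatty acid arm, or for Fdps, Fdft1 and Sqle in the sterol arm. CCAAT occurred in 17 of the 21 members with a window that rose at 12 h and in 5 of the 7 that did not pass, against 41.4% of genes tested.

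The first comparison asked how the pathway stood after 12 h with NRG1. Of the 35 genes, 26 rose and 0 fell at a false discovery rate (FDR, the edgeR p-value after Benjamini-Hochberg adjustment) of at most 0.05, whereas 13.6% of all genes tested rose and 11.9% fell. At an unadjusted p under 0.05, edgeR gave 29 higher and 0 lower, and DESeq2 gave 26 higher and 0 lower after adjustment. The changes were small. The largest was a log2 fold change of 0.39, and 0 of the 35 reached 1.5-fold by edgeR or DESeq2, against 2.29% of all genes tested. The median log2 fold change was 0.22 over the 35 genes and -0.0028 over all genes tested. In 29 of the 35, all 12 h libraries lay above all 0 h libraries, a pattern seen in 19.9% of all genes tested. Without the first 0 h replicate, 24 genes passed.

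By 24 h fewer genes stood above 0 h. Of the 35 genes, 12 were higher than at 0 h and 0 lower by edgeR, against 9.67% of all genes higher and 7.76% lower, with 18 higher and 0 lower at an unadjusted p under 0.05 and 13 higher and 0 lower by DESeq2. No gene reached 1.5-fold, against 2.27% of all genes, and the median log2 fold change was 0.11. Directly between 24 h and 12 h, 5 genes fell (Pmvk, Lss, Acat2, Me1 and Insig2) and 0 rose by edgeR, where 5.03% of all genes passed, 3.06% lower and 1.97% higher, with 21 lower and 0 higher at an unadjusted p under 0.05, and 10 lower and 0 higher by DESeq2. The median was -0.12, and in 21 of the 35 all 24 h libraries lay below all 12 h libraries, against 13.6% of all genes. Both comparisons with 0 h used the same 0 h libraries. The 24 h counts depended on single libraries: 7 genes were higher than at 0 h without the first 0 h replicate and 6 without the third 24 h replicate, and 9 were lower than at 12 h without the first 0 h replicate, 3 without the third 24 h replicate and 1 without the first 12 h, the first 24 h or the second 24 h replicate.

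**Figure D1:**
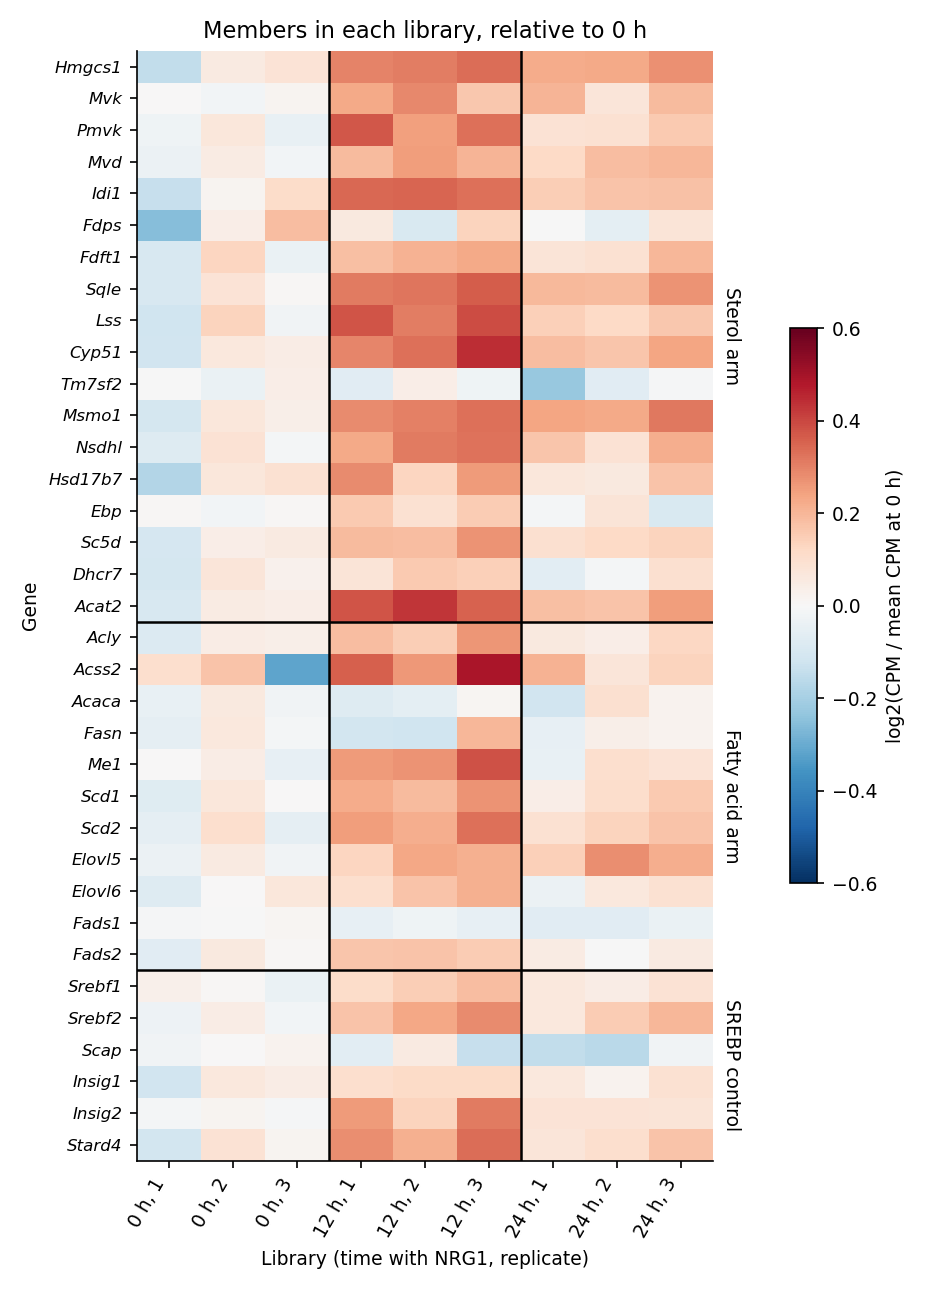
Log2 ratio of CPM to the 0 h mean for each of the 35 genes (vertical axis, grouped by arm) in each of the 9 libraries (horizontal axis). The 12 h columns are the highest for most genes: 29 of 35 had their highest mean at 12 h, 3 at 24 h and 3 at 0 h.

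The heat map by library shows the same order for most genes, with the lowest mean at 0 h in 29 of 35 genes and the highest at 12 h in 29 of 35. The exceptions in the highest time were Tm7sf2, Fads1 and Scap, highest at 0 h, and Elovl5, Fasn and Acaca, highest at 24 h. Replicates of a time point had a median coefficient of variation of 3.88% over the genes and time points.

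In the sterol arm, 14 of 18 genes rose at 12 h, when 13.6% of all genes rose, and the arm had a median change of 0.26 on the log2 scale. The arm begins with acetyl-CoA and passes through mevalonate, and its first members are the cytosolic enzymes that condense acetyl units. Acat2 (ENSMUSG00000023832.14, chr17:12942890-12960747), the thiolase that joins acetyl-CoA, had 86.4, 95.7 and 95.1 CPM at 0 h, 120.0, 124 and 118 CPM at 12 h, and 105, 104 and 109.8 CPM at 24 h. The 3 groups did not overlap. Its log2 fold change was 0.39 ± 0.044 (SE) at 12 h (edgeR FDR = 1.07e-05), 0.20 ± 0.044 at 24 h (edgeR FDR = 0.0044) and -0.18 ± 0.044 from 12 h to 24 h (edgeR FDR = 0.0216), the last of which was lost without the first or second replicate of 12 h or of 24 h (from -0.21 to -0.16 when 1 library was left out). The near-identical Acat3 could share reads with Acat2, so its level is uncertain.

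Hmgcs1 (ENSMUSG00000093930.2, chr13:119690379-119708260), which makes HMG-CoA, had 159, 183 and 186 CPM at 0 h, 216, 218 and 222 CPM at 12 h and 206, 206 and 213 CPM at 24 h. Every library with NRG1 for 12 or 24 h was above every 0 h library. The log2 fold change was 0.31 ± 0.048 at 12 h (edgeR FDR = 0.000173) and 0.24 ± 0.048 at 24 h (edgeR FDR = 0.00207). In this gene 12.1% of exonic bases lie under a gene on the opposite strand. Its promoter is the one with the sterol response element letters printed above.

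Next come the kinases, the decarboxylase and the isomerase that turn mevalonate into isoprene units. Mvk, mevalonate kinase (ENSMUSG00000041939.14, chr5:114444269-114460591), rose by 0.23 ± 0.047 at 12 h (edgeR FDR = 0.002), from 54.4 ± 0.565 to 63.7 ± 2.75 CPM (SD, n = 3). Pmvk, phosphomevalonate kinase, had 146, 156 and 145 CPM at 0 h, 193, 177 and 187 CPM at 12 h and 158, 159 and 166 CPM at 24 h. The 12 h libraries were far above the others, and those of 24 h just above 0 h. The rise at 12 h was 0.32 ± 0.042 (edgeR FDR = 3.87e-05), and from 12 h to 24 h it fell by 0.21 ± 0.042 on the log2 scale (edgeR FDR = 0.0101), a call that was lost without the first 12 h replicate or the first or second 24 h replicate (log2 fold changes from -0.24 to -0.18 when 1 library was left out). Mvd, which decarboxylates diphosphomevalonate, rose by 0.22 at 12 h and 0.17 at 24 h (edgeR FDR = 0.000541 and 0.00535).

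Idi1, the isomerase of the isoprene units, had 62.0, 68.9 and 73.8 CPM at 0 h, 86.6, 86.9 and 85.8 CPM at 12 h and 75.6, 76.7 and 77.1 CPM at 24 h. All 3 groups were separate. The log2 fold change was 0.34 ± 0.051 at 12 h (edgeR FDR = 0.000121) and 0.16 ± 0.051 at 24 h (edgeR FDR = 0.0349), and the 24 h call was lost without the first or second 0 h replicate or any of the 24 h replicates (from 0.10 to 0.23 when 1 library was left out). Fdps, which builds farnesyl diphosphate and stands where the sterol and non-sterol branches part, had 12.5, 15.3 and 17.0 CPM at 0 h, 15.5, 14.02 and 16.4 CPM at 12 h and 14.9, 14.4 and 15.8 CPM at 24 h. Its groups overlapped at all times (edgeR FDR = 0.859 at 12 h), its SE of 0.096 was wider than the median of 0.047 over the 35 genes, and 26.7% of its exonic bases are shared with another gene on the same strand.

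The committed steps to squalene and lanosterol rose. Fdft1, squalene synthase, rose by 0.20 ± 0.051 at 12 h (edgeR FDR = 0.00759), with 18.3% of its exonic bases under Ctsb on the opposite strand. Sqle, squalene epoxidase and a rate-limiting step of the pathway (ENSMUSG00000022351.14, chr15:59315077-59331192), had 211, 239 and 226 CPM at 0 h, 279, 281 and 289.7 CPM at 12 h and 258, 257 and 271 CPM at 24 h, without overlap between any of the groups. It rose by 0.33 ± 0.043 at 12 h (edgeR FDR = 3.43e-05) and 0.22 ± 0.043 at 24 h over 0 h (edgeR FDR = 0.00199).

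Lss, lanosterol synthase, had 199, 237 and 213 CPM at 0 h, 281, 268 and 284 CPM at 12 h and 239, 235 and 242 CPM at 24 h. At 12 h it was above all other libraries, and at 24 h it overlapped with 0 h. It rose by 0.36 ± 0.050 at 12 h (edgeR FDR = 6.53e-05) and fell by 0.22 ± 0.050 from 12 h to 24 h (edgeR FDR = 0.0184), a call that was lost without the first 12 h replicate or any of the 24 h replicates (from -0.24 to -0.21 when 1 library was left out).

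Cyp51, the lanosterol demethylase, had 283, 319.9 and 315 CPM at 0 h, 375, 384 and 416 CPM at 12 h and 347, 344 and 361 CPM at 24 h, again with 3 separate groups. It rose by 0.36 ± 0.048 at 12 h (edgeR FDR = 4.83e-05) and 0.20 ± 0.048 at 24 h (edgeR FDR = 0.00926, lost without the third 24 h replicate, where it was 0.14). Msmo1, which removes methyl groups after Cyp51, had 188, 212 and 207 CPM at 0 h, 246, 249 and 254 CPM at 12 h and 239, 237 and 252 CPM at 24 h. Unlike Lss, its 24 h libraries overlapped with those at 12 h and lay above all at 0 h. The log2 fold change was 0.30 ± 0.044 at 12 h (edgeR FDR = 8.95e-05) and 0.26 ± 0.044 at 24 h (edgeR FDR = 0.000488), the largest at 24 h among the 35 genes.

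Of the other late enzymes, Nsdhl and Hsd17b7, which act with Msmo1 in demethylation, rose by 0.29 and 0.22 at 12 h (edgeR FDR = 0.000304 and 0.0242), and Sc5d, the lathosterol desaturase, rose by 0.22 (edgeR FDR = 0.00153). The Hsd17b7 call was lost without the first 0 h or the first 12 h replicate (from 0.15 to 0.28 when 1 library was left out). Ebp, the sterol isomerase, and Dhcr7, which reduces the last double bond of its branch, had log2 fold changes of 0.13 and 0.12 at 12 h (edgeR FDR = 0.0623 and 0.0942), with all 12 h libraries above all 0 h libraries in both. Tm7sf2, a sterol reductase whose step can also be done by another enzyme, stayed between 25.0 and 30.1 CPM in all 9 libraries (log2 fold change -0.019 at 12 h, edgeR FDR = 0.857), and 12.1% of its exonic bases are shared with Vps51. Between 24 h and 0 h, 9 of the 18 sterol genes rose, against 9.67% of all genes, and the median was 0.15. Among the weaker of these, Mvk and Nsdhl had 0.16 each (edgeR FDR = 0.0306 and 0.0311), and both lost the call without the first or the third 0 h replicate or the first or the third 24 h replicate, Mvk also without the second 0 h replicate (from 0.13 to 0.20 for Mvk and from 0.12 to 0.21 for Nsdhl when 1 library was left out).

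**Figure D2:**
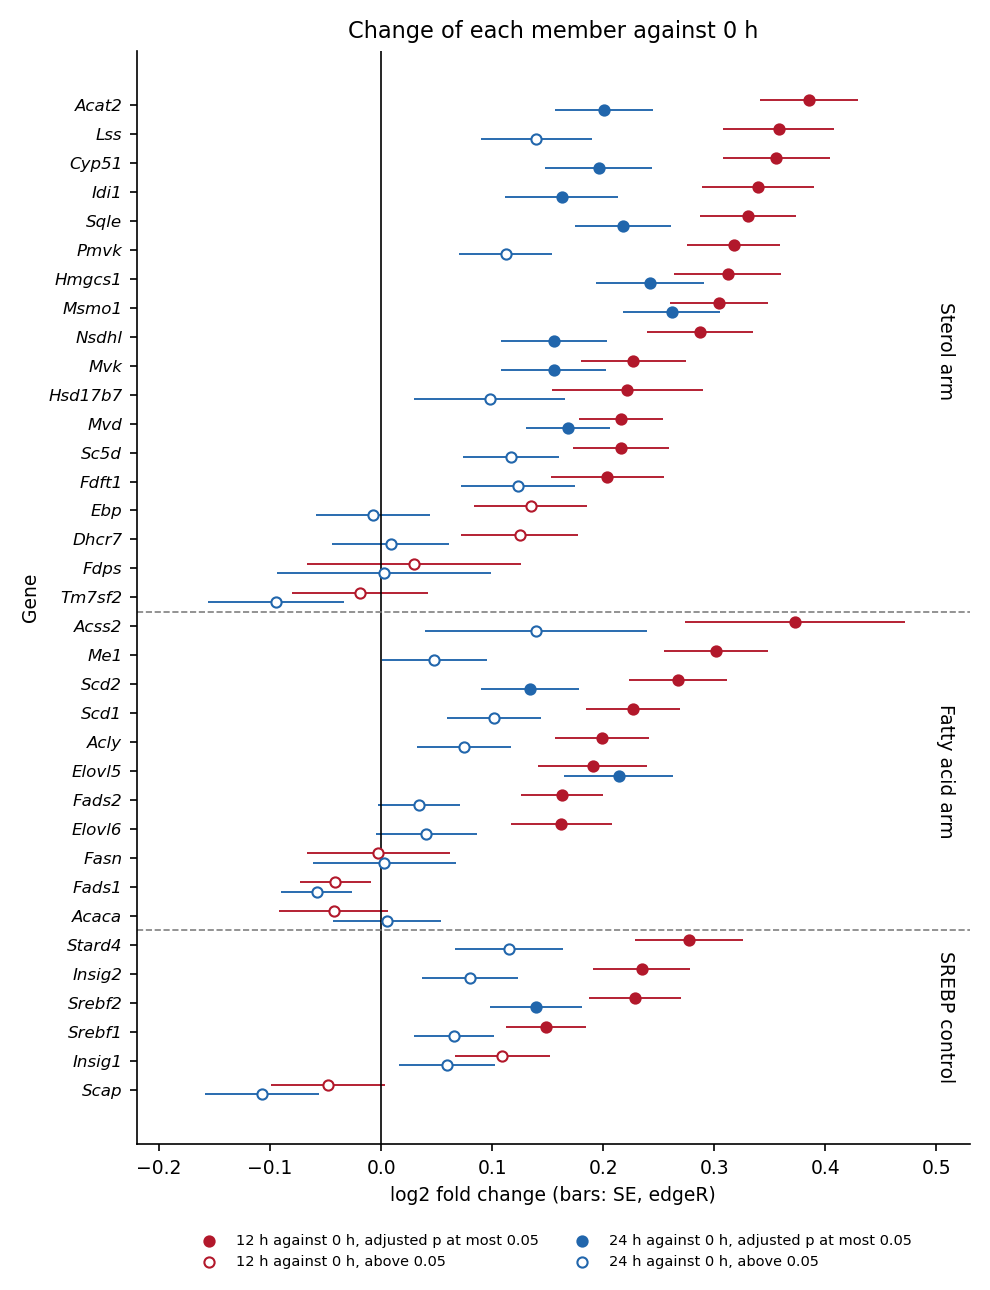
Log2 fold change against 0 h (horizontal axis, bars for the SE from edgeR) of each gene (vertical axis, by arm) at 12 h in red and at 24 h in blue, filled where the adjusted p was at most 0.05. Most red points lie to the right of the blue ones, and Fasn, Fads1, Acaca, Fdps, Tm7sf2 and Scap lie near 0 or below it.

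In the fatty acid arm, 8 of 11 genes rose at 12 h (median change 0.19 on the log2 scale), when 13.6% of all genes rose. At 24 h, 2 of 11 rose (median 0.048), when 9.67% of all genes rose. The 24 h median ran from 0.034 to 0.085 with 1 library left out, the highest without the first 24 h replicate and the next without the second 0 h replicate (0.075). In the plot of changes by gene, some genes of the arm passed at 12 h and others lay near 0, and differences between genes were not tested. The genes that rose supply acetyl-CoA and NADPH or modify finished chains, whereas the carboxylase gene Acaca, the synthase gene Fasn and the desaturase gene Fads1 did not pass the test.

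Acly, ATP-citrate lyase, which makes cytosolic acetyl-CoA from citrate, had 536, 586 and 580.5 CPM at 0 h, 644, 629 and 681 CPM at 12 h and 591, 583 and 619 CPM at 24 h. It stood above both other times at 12 h, by 0.20 ± 0.042 over 0 h (edgeR FDR = 0.00233), and overlapped with 0 h at 24 h. Acss2, which makes acetyl-CoA from acetate, was the lowest of the 35 genes per exonic length and had 18.7, 19.6 and 13.998 CPM at 0 h, 22.3, 20.9 and 24.5 CPM at 12 h and 20.1, 18.3 and 19.1 CPM at 24 h. Its log2 fold change at 12 h was 0.37 with a wide SE of 0.099 (edgeR FDR = 0.0107), and it ran from 0.24 without the third 0 h replicate to 0.48 without the second, passing in all 9 fits that left out 1 library. Me1, the malic enzyme that yields NADPH (ENSMUSG00000032418.15, chr9:86581371-86695953), had 99.2, 102 and 95.7 CPM at 0 h, 118, 119 and 129 CPM at 12 h and 96.1, 106 and 105 CPM at 24 h. The rise of 0.30 ± 0.047 at 12 h (edgeR FDR = 0.000175) was followed by a fall of 0.25 ± 0.047 to 24 h (edgeR FDR = 0.00473), and the fall passed in all 9 fits that left out 1 library.

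Acaca, acetyl-CoA carboxylase, and Fasn, the fatty acid synthase, carry out the synthesis itself. Fasn (ENSMUSG00000025153.9, chr11:120805846-120824547) had 609, 662 and 628 CPM at 0 h, 586, 583 and 727 CPM at 12 h and 611, 649 and 642 CPM at 24 h. The groups overlapped at all times, and the third 12 h replicate was the highest of all. The change was -0.0028 ± 0.064 at 12 h (edgeR FDR = 0.983), 0.0026 at 24 h and 0.0055 between them. Acaca had 131, 141 and 133 CPM at 0 h, 128, 129.7 and 136 CPM at 12 h and 125, 144 and 137 CPM at 24 h, also overlapping, with -0.043 ± 0.049 at 12 h (edgeR FDR = 0.568).

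Desaturases and elongases, which place double bonds in chains and lengthen them, mostly rose at 12 h. Scd2, a stearoyl-CoA desaturase (ENSMUSG00000025203.6, chr19:44293674-44306864), had 4299, 4785 and 4299.7 CPM at 0 h, 5308, 5193 and 5608 CPM at 12 h and 4760.5, 4896 and 5029 CPM at 24 h. The 12 h libraries were the highest, and those at 24 h and 0 h overlapped. It rose by 0.27 ± 0.044 at 12 h (edgeR FDR = 0.000289) and 0.13 ± 0.044 at 24 h (edgeR FDR = 0.0445, lost without the first or the third 0 h replicate or any of the 24 h replicates, and from 0.11 to 0.19 when 1 library was left out). Scd1, a close paralog nearby on the chromosome, had 330.5, 364 and 347 CPM at 0 h, 405, 396 and 418 CPM at 12 h and 356, 374 and 388 CPM at 24 h, and rose by 0.23 ± 0.042 at 12 h (edgeR FDR = 0.000838). Reads shared between these paralogs could have been lost or split in counting.

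Elovl5, an elongase of polyunsaturated chains, had 44.2, 47.0 and 44.5 CPM at 0 h, 49.4, 53.1 and 52.4 CPM at 12 h and 49.98, 54.8 and 52.6 CPM at 24 h. The 24 h libraries overlapped with those of 12 h and lay above those of 0 h. It was 0.19 ± 0.049 higher at 12 h (edgeR FDR = 0.00912) and 0.21 ± 0.049 higher at 24 h (edgeR FDR = 0.00598). Elovl6, which lengthens saturated chains, rose by 0.16 ± 0.045 at 12 h (edgeR FDR = 0.0145, lost without the first 0 h replicate, where it was 0.13). Fads2 and Fads1, the desaturases of polyunsaturated chains, lie close together on chromosome 19. Fads2 had 362, 395 and 381 CPM at 0 h, 426, 427 and 421 CPM at 12 h and 393, 379 and 393 CPM at 24 h, and rose by 0.16 ± 0.037 at 12 h (edgeR FDR = 0.0039), whereas Fads1 had 295, 296 and 299 CPM at 0 h, 287, 291 and 287 CPM at 12 h and 283, 283 and 289 CPM at 24 h. Fads1 was the single gene whose 12 h libraries all lay below those of 0 h, with -0.041 ± 0.032 (edgeR FDR = 0.379). The difference between Fads1 and Fads2 was not tested.

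**Figure D3:**
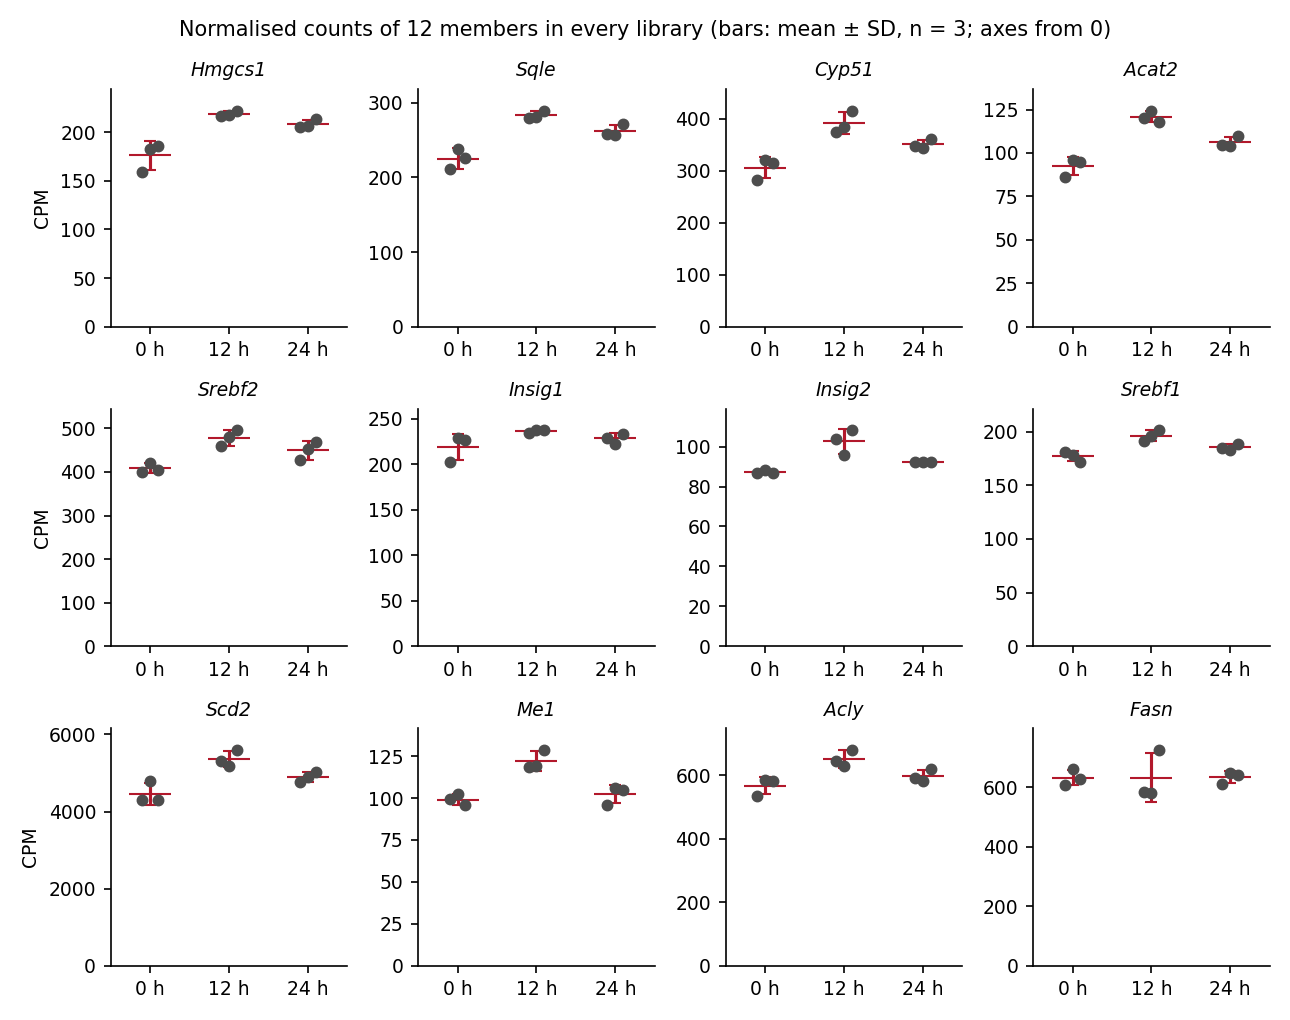
CPM (vertical axes, from 0) of 12 genes in each library at 0, 12 and 24 h (horizontal axes), with the mean and SD of 3 libraries. The 12 h points lie above the 0 h points in all panels except that of Fasn.

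Of the 6 control genes, 4 rose at 12 h and 1 at 24 h, with medians of 0.19 and 0.073. Of all genes tested, 13.6% rose at 12 h and 9.67% at 24 h, so 1 of 6 at 24 h was near the share in all genes. Srebf2 (ENSMUSG00000022463.8, chr15:82147181-82205379), which encodes the SREBP of sterol genes and is itself an SREBP target, had 399, 421 and 404 CPM at 0 h, 459, 479.5 and 496 CPM at 12 h and 427, 453 and 468 CPM at 24 h. All libraries at 12 and 24 h lay above those at 0 h. It rose by 0.23 ± 0.041 at 12 h (edgeR FDR = 0.000658) and 0.14 ± 0.041 at 24 h (edgeR FDR = 0.0273, lost without the first or the third 0 h replicate or the second or the third 24 h replicate, and from 0.11 to 0.18 when 1 library was left out). Srebf1 had 181, 178 and 172 CPM at 0 h, 191, 196 and 202 CPM at 12 h and 185, 183 and 188 CPM at 24 h, separate at all times, and rose by 0.15 ± 0.036 at 12 h (edgeR FDR = 0.00603). A gene count does not tell apart the Srebf1 isoforms, which differ in how they are driven.

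Insig1, the more sterol-responsive of the anchors of SCAP, had 202, 229 and 226 CPM at 0 h, 235, 237 and 237 CPM at 12 h and 229, 222 and 233 CPM at 24 h. Its 12 h libraries were above all at 0 h, but the change of 0.11 ± 0.043 had an edgeR FDR of 0.0746. Insig2, the other anchor, had 86.6, 88.4 and 86.9 CPM at 0 h, 104, 95.8 and 108 CPM at 12 h and 92.3, 92.5 and 92.1 CPM at 24 h. It rose by 0.23 ± 0.043 at 12 h (edgeR FDR = 0.000804) and fell by 0.15 ± 0.043 to 24 h (edgeR FDR = 0.0487), a call that was kept only without the second 12 h replicate among the 9 fits that left out 1 library (from -0.20 to -0.12).

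Stard4, a carrier of cholesterol between membranes and an SREBP target, had 116, 132 and 126 CPM at 0 h, 151, 145 and 158 CPM at 12 h and 131, 134 and 140.4 CPM at 24 h. Only at 12 h was it clear of 0 h, by 0.28 ± 0.049 (edgeR FDR = 0.000514). Scap, the escort itself, had 75.6, 76.9 and 77.9 CPM at 0 h, 73.4, 79.8 and 69.7 CPM at 12 h and 69.4, 68.6 and 75.8 CPM at 24 h. Its groups overlapped, with -0.048 at 12 h and -0.11 at 24 h (edgeR FDR = 0.538 and 0.172), and 13.2% of its exonic bases lie under a gene on the opposite strand.

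The arms were then set side by side through the mean log2 CPM of each arm in each library, relative to the 0 h mean of that arm. The sterol arm stood at -0.091, 0.055 and 0.036 at 0 h, 0.23, 0.23 and 0.27 at 12 h and 0.10, 0.11 and 0.17 at 24 h. For the fatty acid arm the values were -0.033, 0.063 and -0.030 at 0 h, 0.13, 0.13 and 0.23 at 12 h and 0.028, 0.080 and 0.097 at 24 h. The control genes stood at -0.042, 0.038 and 0.0042 at 0 h, 0.14, 0.15 and 0.18 at 12 h and 0.035, 0.040 and 0.10 at 24 h. All libraries of the sterol arm at 12 h lay above all of the others, and those at 24 h above those at 0 h, while the fatty acid arm at 24 h overlapped with 0 h. The sterol arm minus the fatty acid arm was -0.058, -0.0082 and 0.066 at 0 h, 0.10, 0.099 and 0.039 at 12 h and 0.076, 0.029 and 0.074 at 24 h, so that within each library the excess of the sterol arm overlapped between 0 h and both later times. The medians of the log2 fold changes were higher in the sterol arm by 0.067 at 12 h and 0.10 at 24 h. With 1 library left out, these ran from 0.052 to 0.10 at 12 h, the highest without the second 12 h replicate, and from 0.060 to 0.11 at 24 h, the lowest without the first 24 h replicate and the next without the first 0 h replicate (0.064). These are descriptions of lists, and a difference between the arms was not tested.

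**Figure D4:**
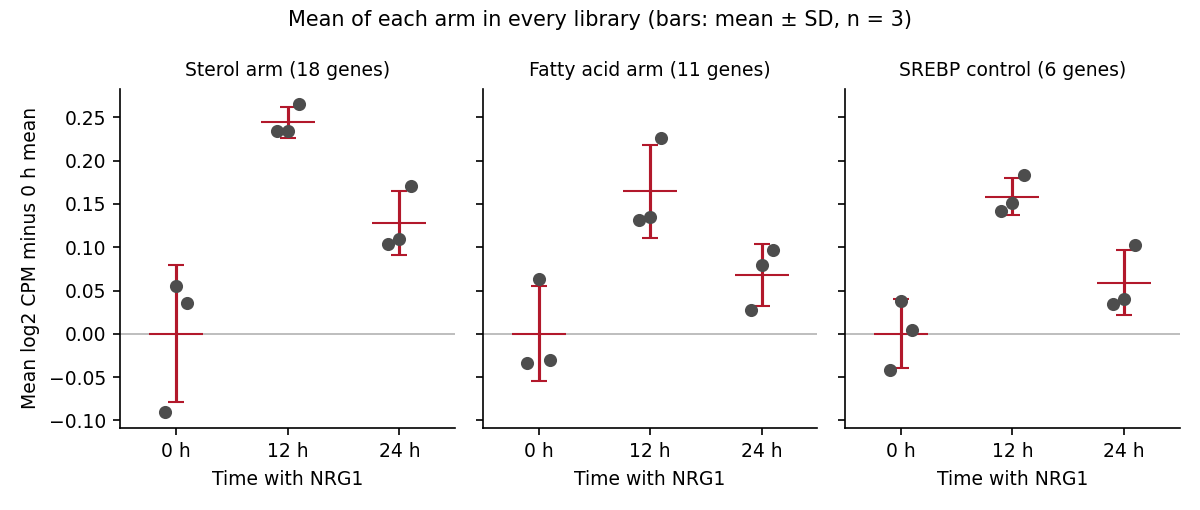
Mean log2 CPM of the sterol arm, the fatty acid arm and the control genes in each library, minus the mean at 0 h (vertical axis), by time with NRG1 (horizontal axis), with the mean and SD of 3 libraries. At 12 h the libraries lie above those at 0 h in each arm, and at 24 h they are lower than at 12 h.

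Levels of different genes were compared as CPM per kb of exonic length at 0 h, where the 35 genes ran from 1.72 to 817 with a median of 27.9. Scd2 stood far above the rest at 817 ± 51.3, followed by Fads2 at 115 ± 5.09 and Acly at 107 ± 5.15, and the last pair differed by less than the sum of their SDs. Pmvk at 86.9 ± 3.60 was the highest of the sterol arm, and Cyp51 at 69.3 ± 4.57 and Mvd at 67.3 ± 2.04 were within their spread of each other. Scd1 at 71.0 ± 3.404 and Insig1 at 70.8 ± 4.67 were alike within their SDs. The lowest were Hsd17b7 at 5.69 ± 0.563, Fdps at 3.55 ± 0.537 and Acss2 at 1.72 ± 0.296. Acss2, the lowest, and Scd2, the highest, both rose at 12 h.

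Genes around the pathway were followed as 5 lists of 73 genes. Unlike those of the members, their calls were not checked gene by gene with single libraries left out. Among 15 genes of SREBP processing and turnover, 2 rose and 4 fell at 12 h, and 2 rose and 5 fell at 24 h, with medians of -0.020 and -0.038. Of all genes tested, 13.6% rose and 11.9% fell at 12 h and 9.67% rose and 7.76% fell at 24 h, so the rises in this list were near the share in all genes. Tmem97, an SREBP target that binds the lysosomal cholesterol exporter NPC1, rose from 107 ± 3.11 to 139 ± 4.70 CPM at 12 h and stood at 118 ± 2.55 CPM at 24 h, which was 0.37 on the log2 scale at 12 h (edgeR FDR = 5.17e-06). Erlin2, which takes part in degrading proteins of the sterol pathway at the endoplasmic reticulum, rose by 0.28 at 12 h and 0.25 at 24 h (edgeR FDR = 0.000217 and 0.000684). Fbxw7, which directs nuclear SREBPs to degradation, fell from 68.9 ± 2.68 to 54.9 ± 4.37 CPM at 12 h and 56.0 ± 0.602 CPM at 24 h (log2 fold changes of -0.33 and -0.30, edgeR FDR = 0.000249 and 0.000727). Unlike Erlin2, Erlin1 fell, by -0.24 at 12 h and -0.24 at 24 h (edgeR FDR = 0.000237 and 0.000372). Syvn1 had -0.19 and -0.21 (edgeR FDR = 0.00213 and 0.00139), and Mbtps1 had -0.15 and -0.18 (edgeR FDR = 0.00608 and 0.00269). Lpin1 fell only at 24 h (-0.16, edgeR FDR = 0.0363).

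The non-sterol branches of mevalonate lead to ubiquinone, dolichol and prenylated proteins, and of 11 such genes 4 rose at 12 h and 1 at 24 h, with medians of 0.039 and 0.0095, where 13.6% and 9.67% of all genes rose. At 24 h this was near the share in all genes. Pdss1, which makes the side chain of ubiquinone, was 0.39 ± 0.10 higher at 12 h (edgeR FDR = 0.0105) at a low level of 6.15 ± 0.326 CPM at 0 h. Fntb, a subunit of farnesyltransferase, rose by 0.21 at 12 h (edgeR FDR = 0.000967), and Rabggta, a subunit of the Rab prenyltransferase, by 0.17 (edgeR FDR = 0.0317).

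LXR receptors sense oxysterols and drive sterol export, which lowers the sterol content of cells. Of 10 LXR and export genes, 7 could be tested. At 12 h, 3 fell (11.9% of all genes fell), and the median was -0.28. Lpcat3 and Nr1h2 had positive log2 fold changes (0.15 and 0.018) and did not pass. Nr1h3 (-0.56 ± 0.34) and Soat1 (-0.16 ± 0.19) did not pass either, at low means of 0.727 and 1.83 CPM. At 24 h, 0 fell and 0 rose against 0 h (7.76% of all genes fell and 9.67% rose), and the median was -0.13. Mylip, an LXR target that directs lipoprotein receptors to degradation, had 18.6, 16.5 and 16.5 CPM at 0 h, 12.2, 11.5 and 11.5 CPM at 12 h and 13.9, 15.5 and 15.0 CPM at 24 h. It was lowest at 12 h, where the change was -0.54 ± 0.076 (edgeR FDR = 6.89e-05), and then rose by 0.33 ± 0.077 (edgeR FDR = 0.0202). Abca1, the exporter of cholesterol to lipoproteins, had 24.3, 19.7 and 16.6 CPM at 0 h and 15.5, 12.5 and 16.8 CPM at 12 h, and its change of -0.43 ± 0.12 passed although the groups overlapped (edgeR FDR = 0.013). Cyp27a1, which makes an oxysterol ligand of LXR, fell by 0.28 ± 0.067 on the log2 scale at 12 h (edgeR FDR = 0.00511).

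Among 18 tested genes of fatty acid supply, elongation and storage, 9 rose and 2 fell at 12 h, and 5 rose and 3 fell at 24 h, with medians of 0.15 and 0.069, against 13.6% up and 11.9% down, then 9.67% up and 7.76% down, of all genes. Acacb, the mitochondrial carboxylase whose product restrains fatty acid entry into mitochondria, had 23.8, 25.8 and 19.3 CPM at 0 h, 34.8, 31.9 and 39.4 CPM at 12 h and 31.4, 34.2 and 33.5 CPM at 24 h. It lay above 0 h at both times, by 0.62 ± 0.090 and 0.52 ± 0.090 (edgeR FDR = 9.1e-05 and 0.000591). Hsd17b12, the reductase of chain elongation, rose by 0.27 at 12 h (edgeR FDR = 0.000147), and Acsl1, an acyl-CoA synthetase, fell by 0.34 at 12 h and by 0.21 at 24 h on the log2 scale (edgeR FDR = 6.52e-05 and 0.0044).

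Of 17 fatty acid oxidation genes, 5 fell at 12 h and 5 at 24 h, against 11.9% and 7.76% of all genes tested, and 12 did not pass at each time. A negative log2 fold change was found in 16 of the 17 at each time, against 5791 of all 11373 genes at 12 h and 5930 at 24 h, and the medians were -0.14 and -0.12. Cpt1a, the carnitine transferase that admits fatty acids to mitochondria and is held back by the product of Acacb, had 237, 224 and 221 CPM at 0 h, 175, 177 and 173 CPM at 12 h and 189, 189 and 187 CPM at 24 h. The groups were separate, and the changes were -0.38 ± 0.036 and -0.27 ± 0.036 (edgeR FDR = 2.24e-06 and 4.99e-05). Ech1, an auxiliary enzyme of oxidation, fell by 0.24 and by 0.19 on the log2 scale (edgeR FDR = 0.00928 and 0.0431). Adipocyte markers could bear on lipid genes and summed to between 23.7 and 25.9 CPM at 0 h, 32.4 and 34.6 CPM at 12 h and 31.9 and 35.9 CPM at 24 h. Nearly all of this was Fabp4, and the defining markers Adipoq and Plin1 were at or near 0.

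**Figure D5:**
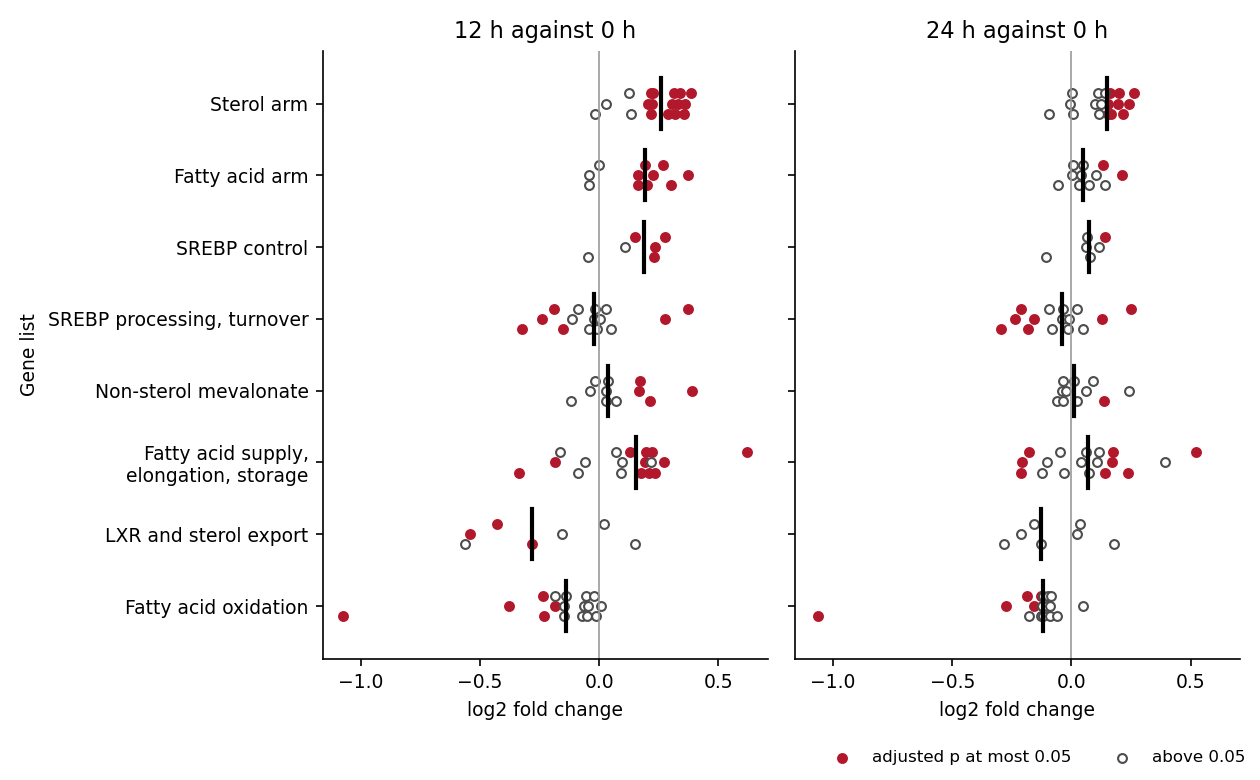
Log2 fold change (horizontal axes) of the genes of each list (vertical axis) at 12 h (left) and 24 h (right) against 0 h, red where the adjusted p was at most 0.05, with a black bar at the list's median. The medians of the 3 lists of SREBP genes lie above 0 at both times, and those of LXR and sterol export and of fatty acid oxidation lie below 0.

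The plot of changes by list sets these next to each other. At 12 h the medians ran from 0.26 in the sterol arm to -0.28 in the LXR and export list, of which only 7 genes could be tested. At 24 h they ran from 0.15 in the sterol arm to -0.13 in that list, where no gene passed against 0 h. The lists were not tested against each other or against other genes.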

How the data were processed

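Libraries of poly(A) RNA from 9 wells of MyC-CaP cells were sequenced as paired-end 150 bp reads. Per the labels and the study's methods, the authors trimmed reads with Cutadapt, aligned them with STAR to GRCm38.p6, and used featureCounts with GENCODE gene models. The deposited values are unnormalized read counts. Whether strand was used and how multi-mapping reads were handled is not given in the sources used here, so overlapping genes and close paralogs are uncertain.

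Counts were filtered with filterByExpr and scaled by TMM, and all 9 libraries were fitted together with edgeR 4.0.16 (R 4.3.3), using the quasi-likelihood F-test for each pair of times and Benjamini-Hochberg adjustment over 11373 genes. A gene rose or fell where its adjusted p was at most 0.05. Each SE is the absolute log2 fold change over the square root of F. The scripts were tested on simulated data. Log2 CPM used a prior count of 2. Exonic lengths, overlaps and gene coordinates came from GENCODE vM21 on GRCm38, and promoters from RefSeq on GRCm38.p6. Depth per library (28467089 to 39239760 counts) and 3 replicates per time limit the precision, and p-values weigh each difference between times against the spread between these replicates.

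Members and lists were chosen with earlier results of these data known, so that no list was tested as a set. Values of every library are given for the 6 control genes and for the up to 8 sterol and 7 fatty acid genes with the largest log2 fold change in any comparison among those passing. Other members were given by level, change or range, Fasn, Acaca, Fads1 and Fdps also by library after their values were seen, and up to 3 passing genes with the largest changes against 0 h were named per companion list. For SREBP processing and turnover, the other genes that passed were named as well. Some genes that these rules cover are not reported here. Alternatives were DESeq2 1.42.0, total counts, no filter, only the time points compared, a replicate block, and leaving out each library. Replicate numbers were checked for pairing, which the check did not settle, and the main fit did not use them.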

Additional observations from a re-analysis of the deposited data

How the results depend on the processing

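The count of members higher at 12 h than at 0 h was 26 and stayed between 26 and 27 under the 5 other settings, and between 24 and 28 when 1 library was left out. The count higher at 24 h than at 0 h was 12, from 12 to 15 under those settings, and from 6 to 15 when 1 library was left out. The count lower at 24 h than at 12 h moved most, from 5 to 10 with DESeq2, 13 with no filter on low counts and 9 with only the time points compared, was 4 with total counts, and ran from 1 to 9 when 1 library was left out. The cause was not tested. Of the 26 genes passing at 12 h, 24 passed in all 9 fits that left out 1 library, against 6 of 12 at 24 h and 1 of 5 between 24 h and 12 h. The call of Insig2 between 24 h and 12 h was also lost with total counts, with only the time points compared and with a replicate block.

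Replicate numbers gave deviations that correlated between -0.0744 and 0.131 over 9 same-numbered pairs, against -0.125 to 0.120 for other pairs. At each of the other times, 4 of 9 libraries correlated best with their own number. The first replicates of 0, 12 and 24 h were among these (0.0908, 0.0493 and 0.131 between them). Such weak correlations do not settle whether the numbers pair the samples, and the main fit left the numbers out. With a replicate block, 27 members were higher at 12 h, 12 were higher at 24 h, and 7 were lower at 24 h than at 12 h. Without a filter, 20.2% of 15552 genes passed at 12 h.

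Changes of sign occurred in 29 values of 13 gene comparisons, all in fits that left out 1 library and none past the threshold in either fit. For 12 h against 0 h the log2 fold changes in these fits ran from -0.11 to 0.050 for Fasn, from -0.075 to 0.14 for Fdps, from -0.10 to 0.0048 for Scap and from -0.050 to 0.0092 for Tm7sf2. For 24 h against 0 h the log2 fold changes in these fits ran from -0.038 to 0.061 for Acaca, from -0.039 to 0.050 for Dhcr7, from -0.046 to 0.038 for Ebp, from -0.024 to 0.039 for Fasn and from -0.10 to 0.11 for Fdps. For 24 h against 12 h the log2 fold changes in these fits ran from -0.0019 to 0.11 for Acaca, from -0.011 to 0.060 for Elovl5, from -0.047 to 0.11 for Fasn and from -0.082 to 0.017 for Fdps.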
